A study of Mus musculus with 4 samples.

Results

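The tubulin genes Tubb2a, Tubb3, Tuba1a, Tuba1b and Tuba4a were followed across 4 Affymetrix MG_U74Av2 GeneChips hybridised with total RNA from the liver of male C57BL/6 mice. Members were all probe sets to which the platform annotation gave exactly 1 of these 5 symbols, which found 8 of 12422 probe sets, for 4 of the 5 genes. They were chosen by their lower Signal at night on these same arrays, so the day-night values are a description. No probe set carried Tuba1b alone. Each probe set is given apart, because tubulin sequences are similar and probes may hybridise to several of them.

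Operation and sampling time were combined, with 1 array per group: ADX at ZT14, ADX at ZT2, sham at ZT14 and sham at ZT2. ZT, zeitgeber time, counts hours from lights on in a usual convention, so that ZT14 lies in the dark phase of a usual light cycle and ZT2 in the light phase. ADX mice had lost both adrenal glands under ketamine and xylazine (91 and 3.6 mg/kg body weight) and drank 0.9% NaCl, while sham-operated mice drank water, and all ate standard chow freely. Removing the adrenals takes away the main source of glucocorticoids, but hormone levels are not given in the labels. The sham titles name a mouse and the ADX titles name mice, and the number of animals per array is not stated. No replicate check exists for any difference between single arrays. A difference that reaches 2-fold with a Present call (detected above mismatch background) on the brighter array is described as passing 2-fold, by size alone. Present calls covered 44.4% to 47.0% of probe sets, and all 12 hepatocyte markers on the array were Present on every array, with median log2 differences of 0.01 (ADX pair) and 0.04 (sham pair) between ZT14 and ZT2. Where both arrays of a pair had a Present call, the log2 difference ZT14 minus ZT2 had a robust SD of 0.33 in the ADX pair and 0.35 in the sham pair.

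Microtubules are hollow polymers built from dimers of 1 alpha and 1 beta tubulin, and several genes encode near-identical versions (isotypes) of each. In hepatocytes they carry secretory vesicles and lipoproteins toward the blood side and membrane proteins toward the bile canaliculus. Cells also adjust tubulin output at the mRNA: when free dimers are in excess, the nascent tubulin peptide is recognised on the ribosome and its mRNA is degraded, a loop called tubulin autoregulation. Tubb2a and Tubb3 encode beta isotypes, Tubb3 being best known as a neuronal marker, and Tuba1a, Tuba1b and Tuba4a encode alpha isotypes.

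The 4 measured genes did not behave as 1 group. The brightest probe set of each beta gene was several-fold lower at ZT14 than at ZT2 with and without adrenal glands, whereas no alpha probe set passed 2-fold in either pair. Of the 5 measured probe sets (Present on at least 1 array, here on all 4), 2 were lower past 2-fold in the ADX pair and the same 2 in the sham pair. Over all 6583 measured probe sets, 2.28% were lower and 2.69% higher past 2-fold in the ADX pair, and 2.37% lower and 3.21% higher in the sham pair. Since these day-night values chose the members, nothing is read from that contrast. The name "lower at night" thus holds for 1 probe set annotated Tubb2a and 1 annotated Tubb3, and not, at 2-fold, for Tuba1a and Tuba4a. The array design groups that Tubb3 probe set with one named Tubb6, so which gene it measures is unclear. In bulk liver, less RNA per cell and fewer cells of a type cannot be told apart.

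The bases upstream of the annotated start of Tubb2a, Tubb3 and Tuba1a are shown. Probe sets annotated to the first pair passed 2-fold lower at ZT14 and those of the third did not. They come from RefSeq, build GRCm38.p6, as 250 bases read 5′ to 3′ on the gene's strand and ending just before the start, at chr13:34078009-34078258 (minus strand), chr8:123411303-123411552 (plus strand) and chr15:98953502-98953751 (minus strand). Capitals mark the searched motifs that were found.
Tubb2a: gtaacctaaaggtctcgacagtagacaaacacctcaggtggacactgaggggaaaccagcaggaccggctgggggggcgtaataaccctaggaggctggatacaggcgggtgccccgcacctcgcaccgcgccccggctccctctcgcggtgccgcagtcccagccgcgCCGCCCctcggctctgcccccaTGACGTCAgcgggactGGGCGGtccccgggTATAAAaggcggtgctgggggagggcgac
Tubb3: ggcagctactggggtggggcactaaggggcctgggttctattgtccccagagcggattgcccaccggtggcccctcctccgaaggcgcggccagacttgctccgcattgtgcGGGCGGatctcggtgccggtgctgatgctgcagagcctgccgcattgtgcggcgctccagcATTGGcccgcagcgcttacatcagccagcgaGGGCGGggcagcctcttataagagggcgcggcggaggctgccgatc
Tuba1a: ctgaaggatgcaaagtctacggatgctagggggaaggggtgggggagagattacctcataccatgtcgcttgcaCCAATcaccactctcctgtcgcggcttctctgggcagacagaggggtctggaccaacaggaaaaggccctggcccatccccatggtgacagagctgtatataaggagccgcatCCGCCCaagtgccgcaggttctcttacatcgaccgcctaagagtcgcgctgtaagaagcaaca
Both strands were searched for the E-box CACGTG bound by CLOCK and BMAL1, the D-box TTATGTAA and its variant TTATGCAA bound by Dbp and its relatives, the ROR and REV-ERB core AGGTCA, the glucocorticoid receptor core AGAACA, the CCAAT box, the GC box GGGCGG and the TATA box TATAAA. The cAMP response element TGACGTCA, bound by CREB, was added after the Tubb2a sequence had been seen. All 3 windows held a GC box (2 in Tubb2a, 2 in Tubb3, 1 in Tuba1a), as did 32.7% of all 32851 RefSeq promoter windows of the same length. A TATA box stood in the Tubb2a window, ending 24 bases before the start, and in 12.4% of all windows. Only the exact letters of each motif were matched, so near variants in any window were not counted. The Tubb2a window also held the cAMP response element, which begins 59 bases before the start and occurs in 1.55% of all windows. Tubb3 and Tuba1a each held a CCAAT box, found in 33.8% of windows. None of the 3 windows held the E-box (6.02% of windows), the D-box (0.819%) or its variant (0.694%), the ROR core (14.0%) or the glucocorticoid receptor core (16.1%). Upstream of Tuba1b and Tuba4a the same 5 motifs were not found either, and each of those windows held 2 GC boxes. Of the other tubulin windows searched, that of the beta tubulin Tubb5 held an E-box, 75 to 70 bases before the start, and 2 CCAAT boxes, and that of Tuba1c held a CCAAT box. A match is a string of letters and not a shown binding site.

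**Figure D1:**
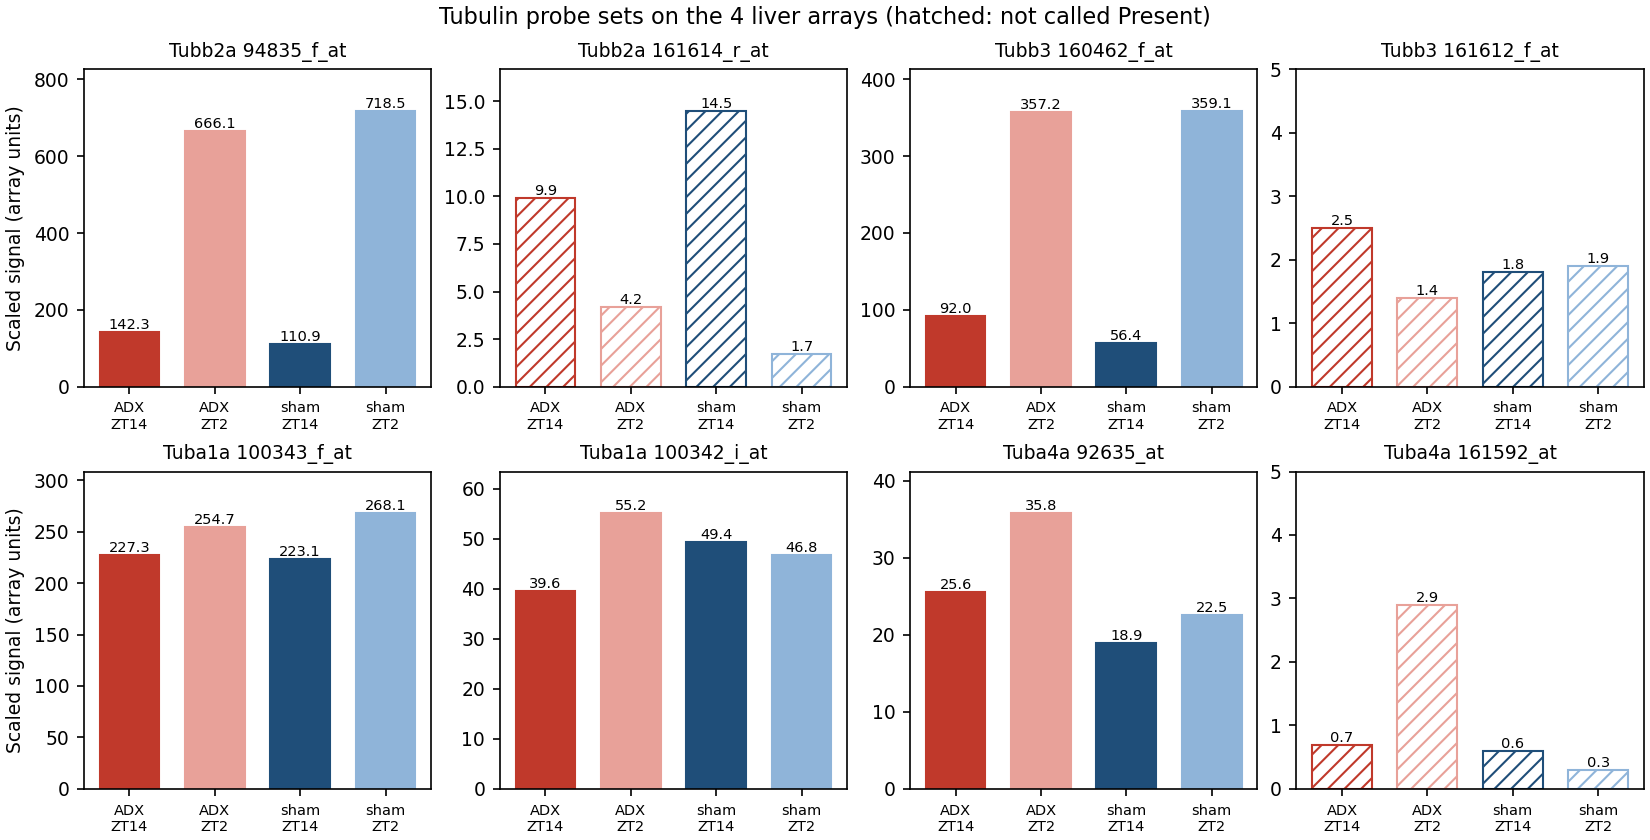
Scaled signal (array units, linear axis from 0, a separate scale in each panel) of the 8 probe sets on the 4 arrays, 1 bar per array, with hatched bars where the array was not called Present. Tubb2a 94835_f_at and Tubb3 160462_f_at are high on both ZT2 arrays and low on both ZT14 arrays, while the Tuba1a and Tuba4a probe sets differ less between times, and the 3 hatched panels show probe sets Present on no array.

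For Tubb2a, a beta tubulin made in many tissues, probe set 94835_f_at had signals of 142.3 at ZT14 and 666.1 at ZT2 in ADX livers, and of 110.9 at ZT14 and 718.5 at ZT2 in sham livers. Both ZT14 arrays lay below both ZT2 arrays. The signal was 4.68-fold lower at ZT14 in the ADX pair (log2 difference -2.23) and 6.48-fold lower in the sham pair (-2.70). The deposited signals before scaling were 133.3 and 638.9 for ADX and 113.5 and 776.5 for sham, each with ZT14 given before ZT2. It was Present on all 4 arrays, with a detection p of 0.000219 on each as deposited. Of the 5872 probe sets Present on at least 2 arrays, 8 had a lower log2 difference in the ADX pair and 4 in the sham pair. Among the 1971 of them with a mean signal of at least 100, only the water channel gene Aqp8 lay lower in the ADX pair (-2.31) and only Igfbp1, a binding protein for insulin-like growth factors, in the sham pair (-4.50), both named after their values were seen. Since these same differences chose the member, its ranks are a description and no support.

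Probe set 160462_f_at, annotated as Tubb3, followed the same order. Its signals were 92.0 at ZT14 and 357.2 at ZT2 in ADX livers, and 56.4 at ZT14 and 359.1 at ZT2 in sham livers. The ZT14 signal was 3.88-fold lower in the ADX pair (-1.96) and 6.37-fold lower in the sham pair (-2.67), and the 2 ZT2 arrays were almost level. The array design placed this sequence in the same UniGene cluster, a group of sequences taken as 1 transcript, as probe set 160461_f_at, which the annotation names Tubb6. That probe set had log2 differences of -0.73 and -0.65. Of 17 other neuron markers on the array, 3 were Present on at least 1 array, namely Gap43, Nefl and Syt1, and the summed signal of all 17 was 97.1 at ZT14 and 71.1 at ZT2 in ADX livers and 96.1 at ZT14 and 68.8 at ZT2 in sham livers. With 1 or 2 of the 17 Present on any array, that sum is mostly background and no direction is read from it. The 3 measured markers had signals of at most 15.2, and their part in the Tubb3 value was not tested.

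The second probe set of each beta gene gave no usable value. Tubb2a 161614_r_at was not Present on any array, with signals of 9.9 at ZT14 and 4.2 at ZT2 in ADX livers and 14.5 at ZT14 and 1.7 at ZT2 in sham livers. Tubb3 161612_f_at, also Present on no array, had signals between 1.4 and 2.5, all under the floor of 3.91 units used before taking logs. Neither therefore shows a fold in any comparison. Both carry sequences that replaced earlier probe sets of the design, as do 160462_f_at and Tuba4a 161592_at. Of these 4 replacement probe sets, 3 were Present on no array.

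The alpha tubulin Tuba1a was read by a pair of probe sets built on 1 sequence. Probe set 100343_f_at had signals of 227.3 at ZT14 and 254.7 at ZT2 in ADX livers, and 223.1 at ZT14 and 268.1 at ZT2 in sham livers. Both ZT14 values were below both ZT2 values, but by log2 differences of only -0.16 and -0.27, within the robust SD of all probe sets. Probe set 100342_i_at had 39.6 at ZT14 and 55.2 at ZT2 in ADX livers, and 49.4 at ZT14 and 46.8 at ZT2 in sham livers, so its day-night differences were -0.48 in ADX and 0.08 in sham. In sham livers its ZT14 signal was not the lower one. The pair therefore agree in not passing 2-fold and differ in the sign of the sham difference.

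Tuba4a, an alpha isotype known from muscle, brain and platelets, had low signals. Its probe set 92635_at gave 25.6 at ZT14 and 35.8 at ZT2 in ADX livers, and 18.9 at ZT14 and 22.5 at ZT2 in sham livers. The log2 differences were -0.48 and -0.25, neither past 2-fold, and its detection p as deposited lay between 0.003067 and 0.021866. Both ADX arrays lay above the sham array of the same time, and all 4 signals were near the 95th percentile of Absent signals, 23.9 units. Its other probe set, 161592_at, was Present on no array, with signals of at most 2.9. Tuba1b could be seen only through 98759_f_at, which the annotation gives to Tuba1a, Tuba1b, Tuba1c and Gm5620 together, so no gene is named from it. That probe set had 472.5 at ZT14 and 492.9 at ZT2 in ADX livers, and 353.0 at ZT14 and 427.7 at ZT2 in sham livers, with log2 differences of -0.06 and -0.28.

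**Figure D2:**
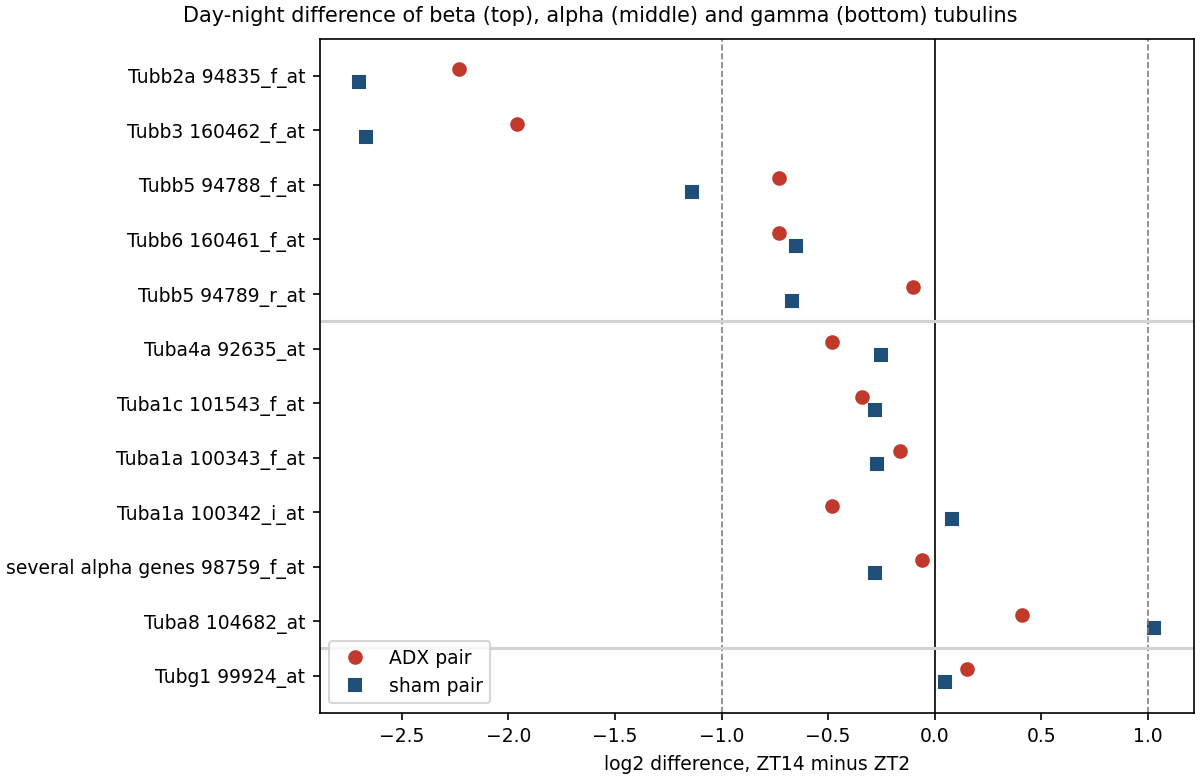
Log2 difference ZT14 minus ZT2 (horizontal axis) of the measured tubulin probe sets, with the ADX pair as circles and the sham pair as squares, and dashed lines at 2-fold. Beta tubulins (top) run from -2.70 to -0.10, most alpha tubulins (middle) lie between -0.48 and 0.08, and Tuba8 in sham (1.03) was Present on neither array of that pair.

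Beta tubulins outside the chosen genes had smaller day-night differences. The 3 measured probe sets, 2 for Tubb5 and 1 for Tubb6, were each lower at ZT14 in both pairs. This held under each of the 5 other scalings and floors tried as well. Of the 3, 0 passed 2-fold in the ADX pair and 1 in the sham pair. Of all 6583 measured probe sets, 2.28% (ADX) and 2.37% (sham) were lower past 2-fold. In the ADX pair these 3 thus lay, like the alpha probe sets, under 2-fold. Tubb5, the most widely made beta tubulin, had 181.7 at ZT14 and 300.4 at ZT2 in ADX livers and 138.6 at ZT14 and 306.4 at ZT2 in sham livers by probe set 94788_f_at. This was 1.65-fold lower at ZT14 in the ADX pair and 2.21-fold lower in the sham pair. Its other probe set, 94789_r_at, was not Present on either ZT14 array and gave at least 1.07-fold lower in ADX and at least 1.59-fold lower in sham. Tubb6 was 1.66-fold and 1.56-fold lower at ZT14 in ADX and sham. Tubb4a and Tubb4b were Present on no array. Because the probes of these sets can share targets, the beta values, Tubb2a and Tubb3 included, are not independent readings. By the brightest probe set, the 5 measured tubulin genes outside the members (Tubb5, Tubb6, Tuba1c, Tuba8 and Tubg1) had medians of -0.34 in the ADX pair and -0.28 in the sham pair.

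Of 6 alpha probe sets, 5 were measured and 0 were lower past 2-fold in either pair. Of all 6583 measured probe sets, 2.28% (ADX) and 2.37% (sham) were lower past 2-fold. A count of 0 among 5 is near that background and is no result about alpha tubulins. The alpha medians were -0.34 (ADX) and -0.25 (sham). Over all measured genes, by their brightest probe set, the medians were 0.01 and 0.00. Tuba1c, which lies near Tuba1a and Tuba1b in the RefSeq gene table and is widely expressed, had 656.4 at ZT14 and 832.8 at ZT2 in ADX livers and 740.5 at ZT14 and 900.8 at ZT2 in sham livers, 1.27-fold and 1.22-fold lower at ZT14. Tuba8 had 36.5 at ZT14 and 27.5 at ZT2 in ADX livers and was not Present in sham livers. Between operations it passed 2-fold at ZT2, at least 2.11-fold higher in ADX (27.5) than in sham livers (13.0), but not with the signals as deposited (log2 0.90), with quantile normalization (0.96) or with a floor of 23.9 units (0.21). The gamma tubulin Tubg1, which nucleates microtubules and is not part of the dimer, had log2 differences of 0.15 (ADX) and 0.05 (sham), the sham value turning to -0.03 under 1 of the other settings, and Tubg2 was Present on no array.

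**Figure D3:**
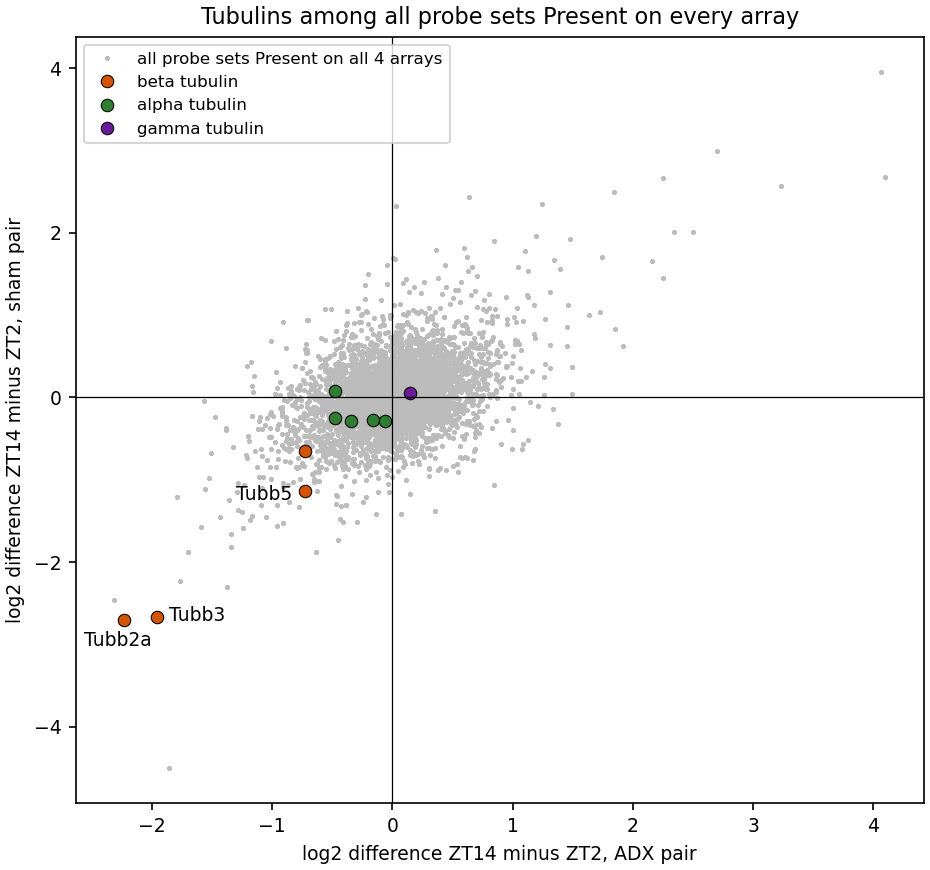
Log2 difference ZT14 minus ZT2 in the ADX pair (horizontal) and the sham pair (vertical) for the 4877 probe sets Present on all 4 arrays (grey), with tubulins in colour. Tubb2a and Tubb3 lie at the lower left edge of the cloud, Tubb5 at -0.73 and -1.14 is nearer to it, and the alpha and gamma tubulins lie inside it.

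In ADX against sham livers 0 of the 5 measured members passed 2-fold at either time. Of all 6583 measured probe sets 2.23% were higher and 1.47% lower at ZT14, and 1.64% were higher and 0.79% lower at ZT2, so a count of 0 among 5 is near that background and is no result about the members. At ZT14 the Tubb2a signal was 142.3 in ADX and 110.9 in sham livers, 1.28-fold higher in ADX. The Tubb3 probe set was 1.63-fold higher in ADX at that time (log2 0.71), against a robust SD of 0.31 over all probe sets Present on both arrays. At ZT2 the same probe sets differed by -0.11 and -0.01. The day-night difference of Tubb2a was thus lower by 0.47 on the log2 scale in sham than in ADX livers, and that of Tubb3 by 0.71. Over 4877 probe sets with 4 Present calls the robust SD of that difference between pairs was 0.37. No test of it is available with 1 array per group.

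Averaged over both times, a limma model with additive terms for time and operation, fitted to 5872 probe sets, gave operation effects below their standard errors for Tubb2a and both Tuba1a probe sets. The Tubb2a effect was 0.13 (95% interval -0.41 to 0.66, Benjamini-Hochberg adjusted p = 0.928) and the Tubb3 effect 0.35 (SE 0.24, adjusted p = 0.857), on the log2 scale. Tuba1a gave -0.02 by 100343_f_at (-0.46 to 0.41, adjusted p = 0.995) and -0.04 by 100342_i_at (-0.62 to 0.53, adjusted p = 0.992). Tuba4a had the largest effect among them, 0.56 (SE 0.16, 95% interval 0.10 to 1.01), higher in ADX at both times by 0.44 and 0.67, but with an adjusted p of 0.83 in the limma fit. The limma model called 0 of 5872 probe sets after adjustment, while 329 had an unadjusted p under 0.05, the Tuba4a probe set among them. With 1 array per group, the 1 residual degree of freedom holds only the difference of the operation effect between times. Limma draws each probe set's variance toward that of all fitted probe sets. The p-values thus do not measure scatter between arrays or animals of 1 group, and a true difference between times counts as noise.

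Genes that fold, modify or bind tubulin were read in the same pairs. Each gene of these lists is read by its brightest probe set. Of 17 measured genes for tubulin folding, which include the CCT chaperonin and the tubulin cofactors, 0 were lower past 2-fold in either pair, and the medians were -0.06 (ADX) and 0.03 (sham). Across 5007 measured genes 2.1% were lower past 2-fold in the ADX pair and 2.2% in the sham pair, and 2.54% and 3.0% were higher. Between operations 1.28% were lower and 1.86% higher at ZT14, and 0.739% lower and 1.42% higher at ZT2, with 0 of the 17 in either direction at either time. Cct5 and Cct4, chaperonin subunits with the highest signals of the list, had log2 differences of 0.11 and 0.21 in ADX and -0.02 and 0.56 in sham. Pfdn5, a prefoldin subunit that hands new tubulin and actin to the chaperonin, passed 2-fold higher in the ADX pair, with signals of 15.4 at ZT14 and 5.1 at ZT2 in ADX livers, the ZT2 array without a Present call, and 8.4 at ZT14 and 8.1 at ZT2 in sham livers. Of 6 measured tubulin-modifying and severing genes, 0 passed 2-fold in either pair, with medians of 0.29 and -0.01.

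Among 30 measured genes of microtubule-associated proteins and motors, 1 was higher in the ADX pair and 1 lower in the sham pair, with medians of -0.06 and -0.03. The dynein intermediate chain gene Dync1i1 had 44.0 at ZT14 and 5.7 at ZT2 in ADX livers, and 26.2 at ZT14 and 29.2 at ZT2 in sham livers, and its ADX ZT2 array was not Present. At ZT2 it was therefore also lower past 2-fold in ADX than in sham livers. Kif2a, a kinesin that takes microtubules apart, was Present only on the sham ZT2 array, at 9.3 units. Of 30 measured actin and keratin cytoskeleton genes 0 were lower in the ADX pair and 1 in the sham pair, the actin-binding Tmsb10, with 55.9 at ZT14 and 112.2 at ZT2 in sham livers and a log2 difference of 0.11 in the ADX pair. The medians were -0.05 and -0.04, so the actin list as a whole lay close to all genes. Between operations Pfn1, which delivers actin monomers, passed 2-fold at ZT14, with 69.8 in ADX and 25.1 in sham livers, the sham array without a Present call.

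**Figure D4:**
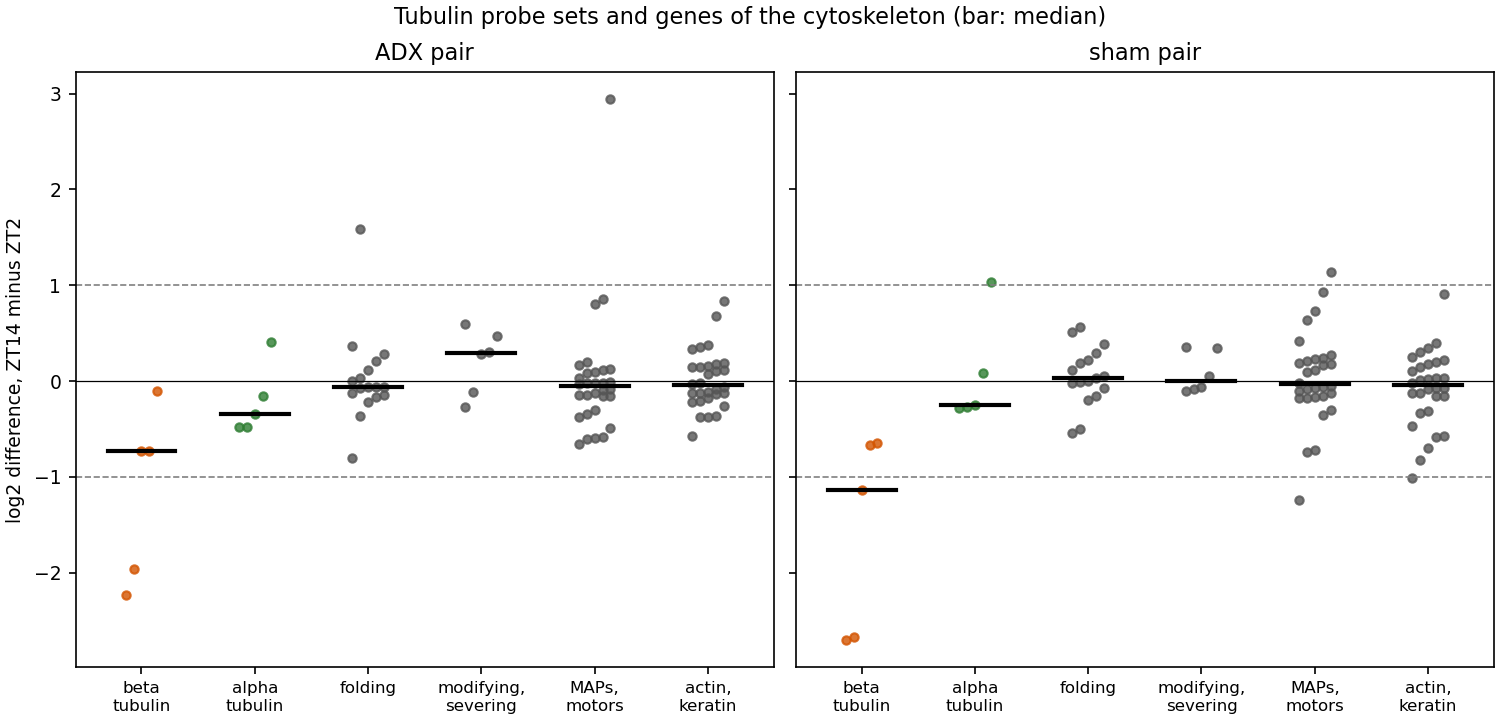
Log2 difference ZT14 minus ZT2 (vertical axis) in the ADX pair (left) and the sham pair (right) for measured beta and alpha tubulin probe sets and for measured genes of the folding, modifying, microtubule-associated and actin lists, 1 point each, with the median as a bar and dashed lines at 2-fold. The beta tubulin medians of -0.73 and -1.14 include Tubb2a and Tubb3, which were chosen by these values, and the other columns have medians between -0.34 and 0.29.

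Markers of dividing cells and of other liver cell types were read in the same pairs. Over all 5007 measured genes, 2.1% were lower and 2.54% higher past 2-fold in the ADX pair, and 2.2% and 3.0% in the sham pair. Of 11 measured proliferation genes, Mcm7, a replication helicase subunit, was lower at ZT14 in both pairs and Ccnb2, a mitotic cyclin, was higher in both, and the medians were 0.19 (ADX) and 0.01 (sham). Mad2l1, a spindle checkpoint gene, passed 2-fold higher in the sham pair. Between operations, Mad2l1 was at least 2.6-fold lower in ADX than in sham livers at ZT14, and Plk1 at least 2.48-fold lower at ZT2. Over all measured genes, 1.28% were lower in ADX at ZT14 and 0.739% at ZT2. The Mad2l1 and Plk1 signals in these comparisons were under 23.9 units, so neither passed with a floor at that level. With a floor of 23.9 units Ccnb2 gave 0.12 in the ADX pair and 0.00 in the sham pair, and Mad2l1 0.00 in the sham pair, so these dim genes no longer passed. Endothelial markers had a summed signal of 596.8 at ZT14 and 704.5 at ZT2 in ADX livers, and 552.1 at ZT14 and 704.6 at ZT2 in sham livers. That sum was lower at ZT14 in both pairs. In the ADX pair Eng alone fell by more than the whole sum, so without Eng the sum was not lower at ZT14 there. In the sham pair much of the fall lay in Eng. The Eng signals were 191.8 at ZT14 and 316.9 at ZT2 in ADX livers, and 197.5 and 296.3 in sham livers. Of 10 measured endothelial genes, 6 had a log2 difference below 0 in the ADX pair and 8 in the sham pair, with 0 past 2-fold. The part of these markers in the tubulin values was not tested. Blood and immune markers summed to 891.8 at ZT14 and 914.9 at ZT2 in ADX livers and to 768.5 at ZT14 and 841.9 at ZT2 in sham livers, with 1 of 9 measured genes, Cd14, lower past 2-fold in the ADX pair. Stellate and fibroblast markers summed to 980.2 at ZT14 and 1034.6 at ZT2 in ADX livers and to 946.1 at ZT14 and 922.5 at ZT2 in sham livers, with 0 of 8 past 2-fold. The bile duct markers were Present nowhere except Cftr on the sham ZT14 array, at 8.1 units. There Cftr was at least 2.08-fold higher than on the sham ZT2 array and than on the ADX ZT14 array.

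The genes most like Tubb2a over the 4 arrays were sought among 4556 genes Present on at least 2 arrays, by the Euclidean distance between log2 signals centred on their own mean. The probe set named Tubb3 lay at a distance of 0.30, and none of the 4556 genes was as close. Both were chosen by their lower Signal at ZT14 on these arrays, and their probes can share targets. Their closeness is therefore built in and nothing is read from it. The nearest was Aqp8, which encodes a water channel of the bile canaliculus, at 0.44, with signals of 41.5 at ZT14 and 206.2 at ZT2 in ADX livers and 47.7 at ZT14 and 262.1 at ZT2 in sham livers. It was followed by Grk5 (a kinase of G protein-coupled receptors, distance 0.63), Denn2b (0.68), Egr1 (an immediate early transcription factor, 0.85), Cldn1 (a tight junction claudin, 0.90), Chka (choline kinase, 0.91), Ccng2 (an atypical cyclin, 0.91) and Atf5 (a stress transcription factor, 0.91). Grk5, Denn2b and Egr1 were Present on the ZT2 arrays alone, so their distance also depends on dim signals. Cldn1, Chka, Ccng2 and Atf5 were Present on all arrays and were 3.26-fold, 2.53-fold, 2.59-fold and 3.02-fold lower at ZT14 in the ADX pair. In the sham pair they were 3.66-fold, 3.54-fold, 4.96-fold and 2.98-fold lower.

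**Figure D5:**
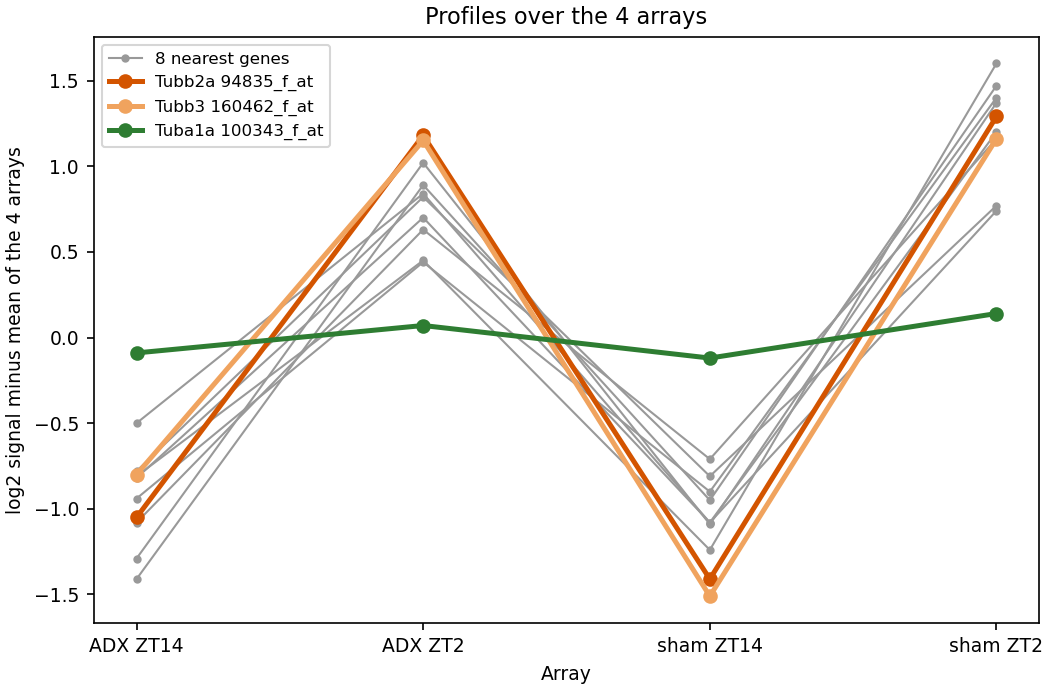
Log2 signal minus the mean over the 4 arrays (vertical axis) of Tubb2a and Tubb3 (orange), Tuba1a 100343_f_at (green) and the 8 genes nearest to Tubb2a (grey), with lines joining the arrays only to guide the eye. Tubb2a stands at -1.41 on the sham ZT14 array and at 1.29 on the sham ZT2 array, while Tuba1a stays within 0.14 of its mean.

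By the same measure, Tuba1a 100343_f_at lay at 2.26 from Tubb2a, its second probe set at 2.32 and Tuba4a at 2.17. Around 100343_f_at itself 1288 of the 4556 genes were within 0.30, since its profile was nearly flat. Its 8 nearest genes were Lrp1, Nedd8, Pttg1, Atp5c1, Slc30a1, Clec4f, Ndufv3 and Mrc1, at distances of 0.03 to 0.05. A profile this common does not single out any of them.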

How the data were processed

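Liver RNA on 4 MG_U74Av2 arrays was read. Per the file headers, the authors deposited for each probe set a Signal, which is a linear intensity from that array alone, plus a call (Present, Marginal or Absent) and its detection p-value. The deposited p-value was used through its call and printed for members. The sources used here name neither software nor scaling target. The series table holds the same intensities (largest difference 0). Run sheets show 1 hybridisation day, 1 fluidics station and 4 wash modules, so module and group cannot be told apart.

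Arrays were multiplied by 0.925 to 1.067 to a common 2% trimmed mean (trimming at each end). The 66 control probe sets were dropped, signals under 3.91 units (the median Absent signal, above the lowest Present one of 3.05) were set to that floor, and log2 was taken. The ratio of 3' to 5' control signal was 1.69 to 1.89 for actin and 0.91 to 1.03 for Gapdh. The number of arrays limits the precision. A fold against an array without a Present call is a lower bound.

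Genes were named from the platform annotation (1 symbol only). Lists used each gene's probe set with the highest mean signal. Members and lists were chosen with earlier results of these data known. Genes named beyond the members were measured tubulins, list members past 2-fold by that probe set, the 2 brightest folding genes, and the 8 nearest profiles for Tubb2a and Tuba1a. The operation effect was fitted with limma 3.58.1 (R 4.3.3, lmFit and eBayes, Benjamini-Hochberg adjustment). The same fit was run on simulated data with independent noise and no operation effect that differed between times. That run therefore does not check the p-values printed here. Other steps used Python 3.11.15, NumPy 2.4.6, pandas 2.3.3 and matplotlib 3.10.9. Alternatives were deposited signals, quantile normalization, other floors and other fit filters.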

Additional observations from a re-analysis of the deposited data

Results flagged for a closer look

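With 1 array per group, differences of opposite sign in the paired contrasts were listed for members Present on all arrays, and none of these differences between contrasts was tested. Between times, Tuba1a 100342_i_at was -0.48 in ADX and 0.08 in sham, which differ by -0.55. Between operations the same probe set was -0.32 at ZT14 and 0.24 at ZT2, the same -0.55 read the other way. Tubb2a 94835_f_at was 0.36 at ZT14 and -0.11 at ZT2 (ADX minus sham, a difference of 0.47), and Tubb3 160462_f_at 0.71 and -0.01 (0.71). Tuba1a 100343_f_at was 0.03 and -0.07 (0.10). The robust SD of such a difference over 4877 probe sets was 0.37, so 100343_f_at lay well inside it. All other members lacked a Present call or had 1 sign.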

How the results depend on the processing

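Counts of members past 2-fold were 2 in the ADX pair, 2 in the sham pair, and 0 at ZT14 and 0 at ZT2 between operations, also with deposited signals, quantile normalization, a floor of 1 unit, a doubled floor (7.82 units) or a floor of 23.9 units, the 95th percentile of Absent signals. Over these settings Tubb2a ranged from -2.27 to -2.23 in ADX and from -2.77 to -2.65 in sham, and Tubb3 from -1.99 to -1.96 and from -2.75 to -2.64. All 100 member values recomputed kept their side of 2-fold, but signs near 0 moved: Tubb3 between operations at ZT2 ranged from -0.18 to 0.03 and Tuba1a 100343_f_at at ZT14 from -0.10 to 0.03. Deposited signals lowered the median ADX minus sham difference of all Present probe sets to -0.11 at ZT14 and -0.17 at ZT2. For other named genes, 720 values were recomputed, of which 33 no longer passed 2-fold and 3 newly did. Most of the 720 had not passed 2-fold in the main setting and could not be lost. A share of 33 in 720 thus understates how often a passing value was lost. With the floor of 23.9 units Grk5 (-0.32 in ADX, -0.82 in sham) and Denn2b (-0.19, -0.77) passed in neither pair, and Egr1 (-0.52) not in ADX, nor did Pfdn5 (0.00) or Dync1i1 (0.88) in ADX or Kif2a (0.00) in sham. Ccnb2 passed in neither pair (0.12 in ADX, 0.00 in sham), nor did Mad2l1 (0.00) or Cftr (0.00) in sham, Syt1 (0.00) or Cd14 (-0.66) in ADX, or Tuba8 (0.21), Dync1i1 (-0.29), Plk1 (0.00) and Gap43 (0.00) between operations at ZT2. Between operations at ZT14, Mad2l1 and Cftr did not pass either, since their signals on both arrays lay under that floor. In the limma fit 0 members passed under all 5 settings, with adjusted p between 0.61 and 0.83 for Tuba4a and between 0.792 and 0.868 for Tubb3. No paired analysis was possible because the groups hold 1 array each and the labels give no replicate numbers. Leaving out an array was not run, since it would empty a group.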
